A study of Mus musculus with 3 samples.

Results

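Syndecans and glypicans are the main families of cell-surface heparan sulfate proteoglycans. All 10 mouse genes, Sdc1 to Sdc4 and Gpc1 to Gpc6, were taken by symbol from a table of 34591 gene symbols, and all 10 were present. The table came from messenger RNA sequencing of 4T1, an established mouse mammary carcinoma line. The cells carried extra expression of WISP2 (a matricellular CCN-family protein that cells secrete) and formed 1 group of 3 libraries, here called C1, C2 and C3. The series' title concerns WISP2 as an inhibitor of collagen linearization and metastasis. The labels give the genotype only as WISP2 over-expression in cultured cells. Their protocol describes lentiviral transfer, puromycin selection and constructs of the paralog Wisp1, and says nothing of the WISP2 construct or of clonal origin. Empty-vector control libraries were not analysed here, so no value here estimates an effect of WISP2. In bulk libraries, fewer cells that express a gene and less RNA per cell cannot be told apart.

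Syndecans cross the membrane once and end in a short cytoplasmic tail that binds PDZ-domain proteins such as syntenin, whereas glypicans are held to the outer leaflet by a glycosylphosphatidylinositol (GPI) anchor. Their heparan sulfate chains bind growth factors, morphogens and matrix proteins, so the core proteins act as co-receptors and as adhesion receptors. In epithelia Sdc1 is the typical syndecan, Sdc4 is found widely and at focal adhesions, Sdc2 is typical of mesenchymal cells and Sdc3 of the nervous system. Gpc3 is known as an oncofetal antigen of liver cancer.

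The shared sequence of the syndecans is shown first, because counts of related genes can be mixed where their transcripts are alike. The last 60 coding bases before the stop codon, from GENCODE M21 transcripts, are given with capitals for bases that are the same in all 4 genes when aligned without gaps from that end. This stretch encodes the end of the cytoplasmic tail.
Sdc1: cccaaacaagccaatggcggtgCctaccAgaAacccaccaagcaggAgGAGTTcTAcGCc
Sdc2: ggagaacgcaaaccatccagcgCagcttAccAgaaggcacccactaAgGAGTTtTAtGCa
Sdc3: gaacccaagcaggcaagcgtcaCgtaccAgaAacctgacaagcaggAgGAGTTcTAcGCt
Sdc4: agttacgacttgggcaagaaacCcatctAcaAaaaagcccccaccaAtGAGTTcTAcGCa

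In that stretch 13 of 60 positions were the same in all 4 syndecans, most of them in the final codons. For the 6 glypicans, aligned the same way, 0 of 60 positions were shared. The longest exact run that any 2 of the 10 genes shared in their protein-coding transcripts had 29 bases. It lay in Sdc3 and Sdc4, 73 and 58 coding bases before the stop codon, and 23 of its bases, in capitals, were also in Sdc1.
Sdc3 and Sdc4: taccgcATGAAGAAGAAGGACGAAGGCAG

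Sdc1 and Sdc3 shared a run of 27 bases, Sdc2 shared at most 14 with any other member, and the longest run between 2 glypicans was 17 bases (Gpc4 and Gpc6). For read length, and for how reads matching more than 1 gene were handled, the sources used here give nothing. Overlap with other genes of that annotation touched 4 members. Gpc1 shared 977 of 5159 exon bases with Ankmy1 on the opposite strand, which had 12 counts over the libraries. Sdc3 shared 415 of 5989 with the antisense gene Gm26716 and 48 with the antisense gene Gm12970, which had 0 counts. Gpc5 shared 107 of 4453 with the opposite-strand gene Gm20713. Gpc2 shared 2376 of 4274 with Gm43720 on the same strand. The effect of these overlaps on the counts was not tested.

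Summed over all genes, C1 had 17630755 counts, C2 had 67028365 and C3 had 47577315. At these depths 3 counts, taken as the limit for a gene at 0, were worth 0.170, 0.0448 and 0.0631 CPM, the usual scaling of a count to its library's total. Wisp2 stood at 429, 384 and 454 CPM. Without control libraries these values do not test the label. All 5 epithelial markers (Krt8, Krt18, Krt7, Cdh1 and Epcam) reached 1 CPM in every library. Of 9 leukocyte markers 2 (Lyz2 and Cd68) did so, and the 9 summed to 20.1, 9.83 and 10.2 CPM in C1, C2 and C3, with Cd3e at 0 counts. Of 4 endothelial markers 0 reached 1 CPM. Of 8 fibroblast markers only Pdgfra did (18.3 ± 1.03 CPM), with Lum and Thy1 at 0 counts. Of the 4 plasma cell markers present only Xbp1 did (59.7 ± 2.32 CPM), a secretory pathway regulator that other cells express too, and Igj, Ighg1 and Tnfrsf17 had 0 counts. The plasma cell list was included because plasma cells carry Sdc1.

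All 4 syndecans but only Gpc1 and Gpc4 of the 6 glypicans were detected. These 6 of 10 members reached 1 CPM in every library, against 33.8% of all symbols. Of the other 4, Gpc2, Gpc3 and Gpc5 had 0 counts in all libraries, as had 45.7% of all symbols, and Gpc6 had 2 counts in each. The members nearest the 1 CPM line were Gpc4 above it and Gpc6 below it, and no member lay between these.

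**Figure D1:**
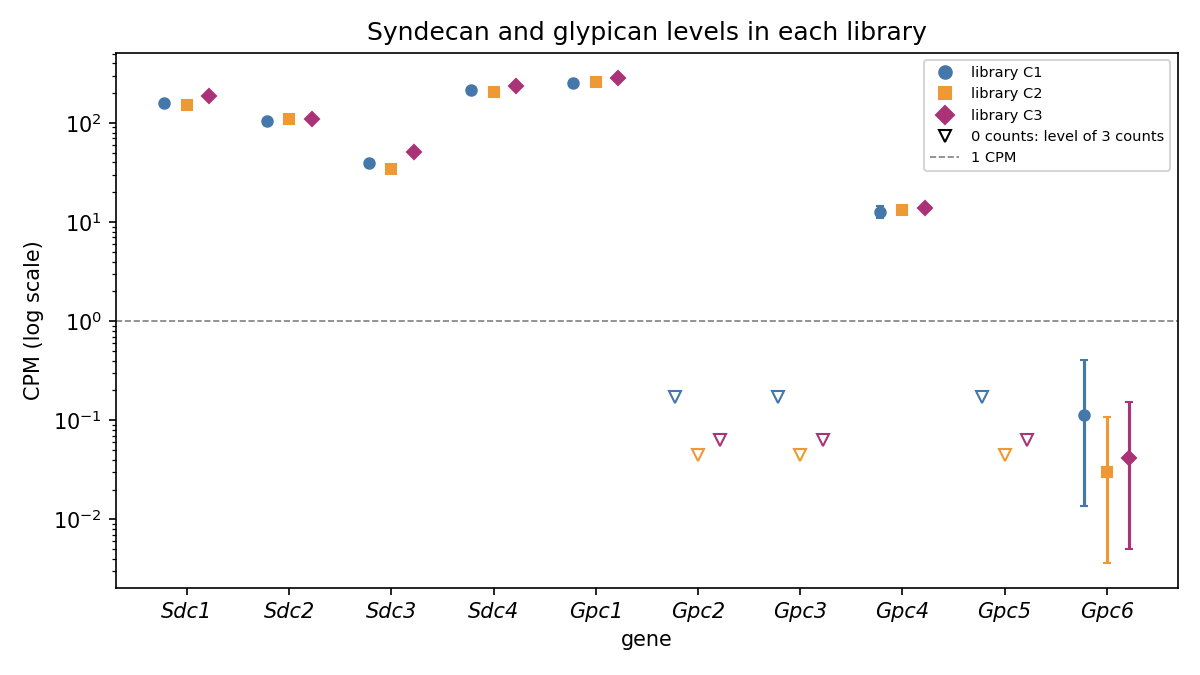
Level of each of the 10 genes in each library, in CPM on a log axis; points are single libraries, bars are 95% exact binomial intervals, and open triangles mark the level of 3 counts where a gene had 0. Gpc1 and Sdc4 lie between 205 and 284 CPM, Gpc4 between 12.6 and 13.9 CPM, and Gpc6 below 1 CPM.

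Sdc4, the syndecan that acts with integrins at focal adhesions, had 213, 205 and 235 CPM in C1, C2 and C3 (218 ± 15.7, SD, n = 3). Its level was highest in C3, where the 95% interval (231 to 240) lay above those of C1 (206 to 220) and C2 (202 to 209), which met each other. That mean exceeded 92.2% of the detected genes (those that reached 1 CPM throughout). Sdc1, the epithelial syndecan and a receptor for collagen and laminin, had 161, 153 and 185 CPM in C1, C2 and C3 (166 ± 16.6). Again C3 (181 to 189) lay above C1 (155 to 167) and C2 (150 to 156). Sdc2, known mainly from mesenchymal cells, had 104, 110 and 109 CPM (108 ± 2.98). The 3 libraries lay close together for Sdc2, and its intervals in C2 and C3 (107 to 112 and 106 to 112) were nearly the same. Sdc3, the neural syndecan, was the lowest of its family at 39.0, 34.7 and 51.3 CPM (41.7 ± 8.63). Its C3 interval (49.3 to 53.4) was again clear of the others (36.2 to 42.1 in C1 and 33.3 to 36.1 in C2).

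Gpc1, a co-receptor for fibroblast growth factors that is common in carcinoma, was the glypican with the highest counts, at 250, 257 and 284 CPM in C1, C2 and C3 (264 ± 17.7). The intervals of C1 (243 to 258) and C2 (253 to 261) overlapped, and that of C3 (279 to 289) was higher. Gpc4 had 12.6, 13.2 and 13.9 CPM (13.2 ± 0.640), and the intervals of all 3 libraries overlapped. Gpc6, the closest relative of Gpc4 in sequence, had 0.113, 0.0298 and 0.0420 CPM from 2 counts each, which is below the limit set by 3 counts in every library. Gpc2, Gpc3 and Gpc5 had 0 counts, which allows up to 0.170, 0.0448 and 0.0631 CPM in C1, C2 and C3. Gpc3 lies near Gpc4 on chromosome X, and Gpc5 near Gpc6 on chromosome 14. The first pair thus holds a detected gene near one with no count, and the second holds none above the limit.

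Levels of different genes were compared after division by exon length (CPM per kb). Sdc4 led with 83.6, 80.6 and 92.4 CPM per kb in C1, C2 and C3 (85.5 ± 6.15), followed by Gpc1 at 48.6, 49.8 and 55.0 (51.1 ± 3.43) and Sdc1 at 42.2, 40.2 and 48.6 (43.7 ± 4.36). Sdc2 had 30.6 ± 0.846 CPM per kb, Sdc3 6.96 ± 1.44, Gpc4 4.99 ± 0.242 and Gpc6 0.00961 ± 0.00703. Within libraries, each of the 6 pairs of neighbours in this order differed by more than the SD of its log2 ratio, in the same direction in 3 of 3 libraries. The closest pair was Gpc1 over Sdc1, with a log2 ratio of 0.23 ± 0.07 (1.17-fold). Sdc4 exceeded Gpc1 by 0.74 ± 0.04 (1.67-fold), and Sdc1 exceeded Sdc2 by 0.51 ± 0.14 (1.42-fold). Sdc2 exceeded Sdc3 by 2.15 ± 0.29 (4.45-fold), the widest step among the detected members. Sdc3 exceeded Gpc4 by 0.46 ± 0.25 (1.38-fold), with 0.45 in C1, 0.22 in C2 and 0.71 in C3. With 3 libraries the smallest p of an exact two-sided sign-flip test is 0.25, so these ratios carry no p.

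The order of Sdc4 and Gpc1 rested on the length correction. On counts alone Gpc1 was higher, with a log2 ratio of Sdc4 to Gpc1 of -0.28 (0.826-fold), because the annotated exons of Gpc1 span 5159 bases and those of Sdc4 2547. With the longest transcript of each gene as the length, Sdc4 was 1.40-fold above Gpc1. Gpc1 exceeded Gpc4 by 3.35 ± 0.04 on the log2 scale per length (10.2-fold), a ratio that varied between 3.32 and 3.39 over the libraries. Over summed counts Gpc4 exceeded Gpc6 by 714-fold per length (95% counting interval 327 to 1948), where Gpc6 supplied 6 counts in all. The ratio of Gpc1 to Gpc6 was 7290-fold per length (95% counting interval 3349 to 19866). With a floor of 3 counts per library, Gpc1 was at least 1219-fold higher than Gpc2, at least 768-fold higher than Gpc3 and at least 1271-fold higher than Gpc5 per length. These bounds and the summed-count ratios to Gpc6 hold for the annotated exons as the length, and no other length was tried for them. The longest transcripts of Gpc5 and Gpc6 have 2837 and 4146 bases, against 4453 and 6425 exon bases.

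Per length, Sdc4 held 38.4% ± 0.451 of the summed level of the 10 genes, Gpc1 22.9% ± 0.435, Sdc1 19.6% ± 0.615, Sdc2 13.8% ± 0.879, Sdc3 3.10% ± 0.422 and Gpc4 2.24% ± 0.0906. The share of Sdc4 lay between 37.9% and 38.8% in the single libraries. On counts without length correction it was 26.9% ± 0.370 and Gpc1 led with 32.5% ± 0.592. The 4 syndecans together had 162, 158 and 181 CPM per kb and the 6 glypicans 53.3, 54.7 and 60.2 in C1, C2 and C3. The log2 ratio of these sums was 1.57 ± 0.04 (2.97-fold), or 1.93-fold on counts alone. In the glypican sum Gpc1 and Gpc4 supplied all but the trace of Gpc6.

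**Figure D2:**
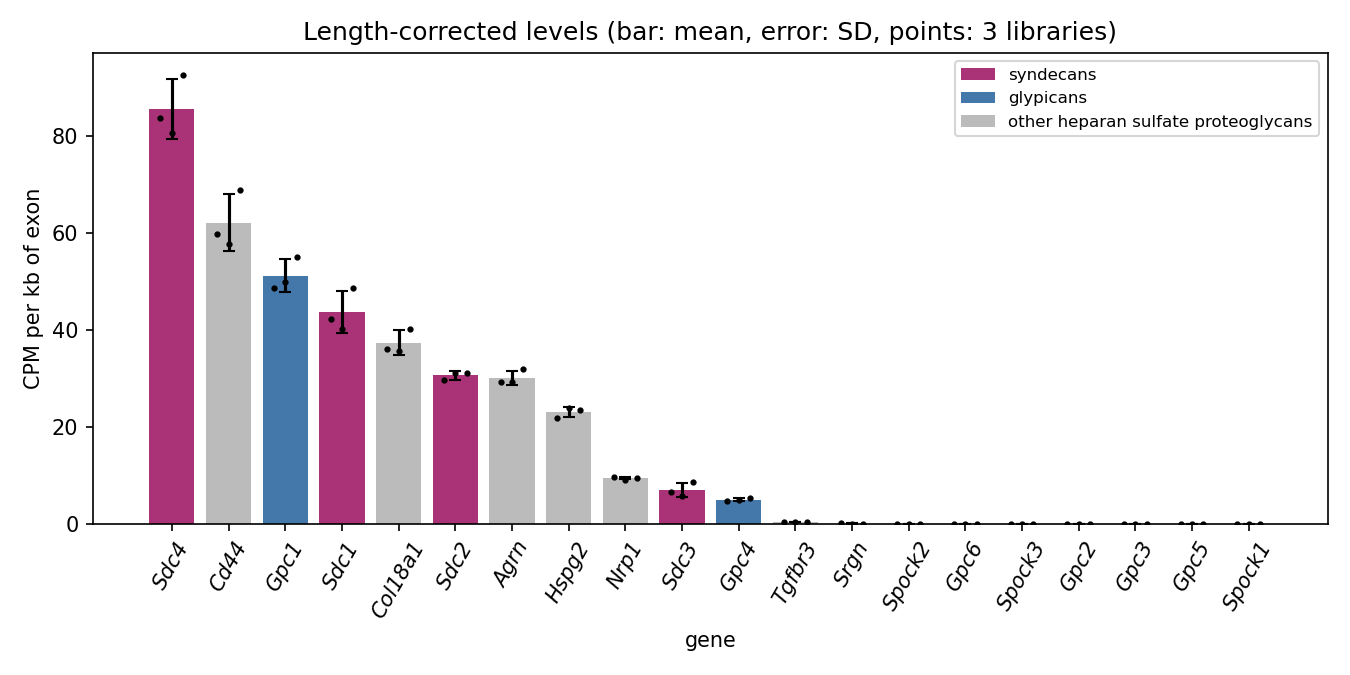
Levels in CPM per kb of exon for the 10 genes (coloured) and 10 other heparan sulfate proteoglycan genes (grey); bars are means of 3 libraries, error bars SD and points single libraries in the order C1, C2, C3. Sdc4 stands highest at 85.5, and Gpc1, Sdc1 and Sdc2 lie among Cd44, Col18a1 and Agrn.

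Against other genes whose products can carry heparan sulfate, the leading members stood high per length. Cd44, which carries such chains only in some isoforms, had 62.1 ± 5.90 CPM per kb, the collagen XVIII gene Col18a1 37.3 ± 2.55, agrin, Agrn, 30.1 ± 1.49, and perlecan, Hspg2, 23.1 ± 1.07. Per length Sdc4 was above all of them in each library. This order rested on the length correction. On counts alone Cd44 (421 ± 40.0 CPM) and Hspg2 (330 ± 15.3 CPM) were above Sdc4 (218 ± 15.7 CPM). Col18a1, at 253, 250 and 282 CPM in C1, C2 and C3, was above it as well. So was Agrn, with annotated exons of 9285 bases. Another length was not tried for these genes. Nrp1 had 9.38 ± 0.2503 CPM per kb, above Sdc3 and Gpc4, and the betaglycan gene Tgfbr3 had 0.379 ± 0.0664. Srgn, Spock2 and Spock3 had 0.0195, 0.0155 and 0.000823 CPM per kb on average, and Spock1 had 0 counts.

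Spread between the libraries was tested for the 6 members that passed the filter on low counts, among 13026 genes. That filter was passed by no member at or near 0, so the other 4 have no test. Sdc1, Sdc3, Sdc4 and Gpc1 differed between libraries by more than counting noise (4 of 6, Poisson dispersion test with Benjamini-Hochberg adjustment over all genes), as did 39.3% of all genes. Sdc2 and Gpc4 did not pass. The test gains power with depth, and Gpc4 had the fewest counts of the 6. Sdc2, with 14395 counts over the libraries, had more than Sdc3 with 5452, which passed. The part of depth was not tested. Against genes of similar level, 0 of 6 passed in edgeR's quasi-likelihood F test, in which 9 genes (0.0691%) passed. At an unadjusted p under 0.05 this test had 2 of 6 members, Sdc1 and Sdc3, and 671 genes (5.15%).

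**Figure D3:**
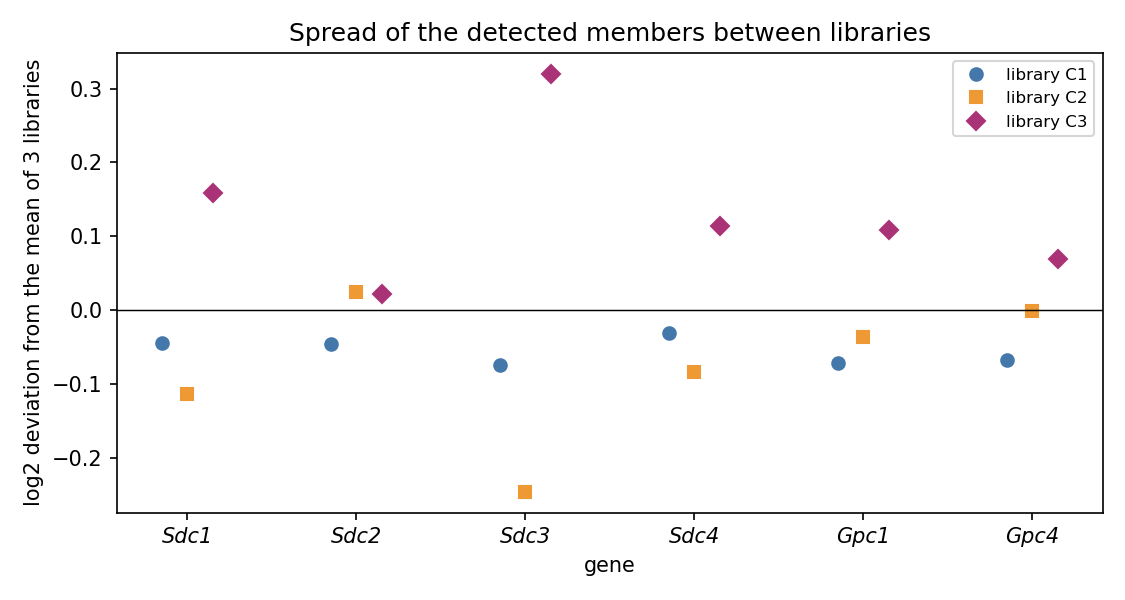
Log2 deviation of each library from the mean of 3 for the 6 members at 1 CPM or more; each point is a library. C3 lies above 0 for all 6, from 0.02 for Sdc2 to 0.32 for Sdc3, and C2 is lowest for Sdc1, Sdc3 and Sdc4.

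Sdc3 spread most. Its log2 deviations were -0.07 in C1, -0.25 in C2 and 0.32 in C3, an SD of 0.29 on the log2 scale, and its F ratio was 16.4 (adjusted p = 0.215, edgeR). Leaving out C1, C2 or C3 gave an adjusted p of 0.0392, 0.117 or 0.978. With every gene that had a count in the fit it was 1.76e-04, and with a robust prior 0.996. Sdc3 thus passed only without C1 or with every gene that had a count. In these settings 52 of 13337 and 171 of 18797 genes passed, against 9 of 13026 in the main fit. With the robust prior 0 of 13026 genes passed, so that setting cannot set Sdc3 apart from other genes. Sdc1 deviated by -0.05, -0.11 and 0.16 (F ratio 6.47, adjusted p = 0.791, edgeR). Sdc4 deviated by -0.03, -0.08 and 0.11, and Gpc1 by -0.07, -0.04 and 0.11, with F ratios of 3.59 and 3.14. Sdc2 and Gpc4 were the steadiest, with an SD of 0.04 and 0.07 on the log2 scale.

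After TMM scaling all 6 tested members were highest in C3, as were 35.5% of all genes tested. On column totals this was 5 of 6, since Sdc2 was then highest in C2. Of these, 3 members, Sdc1, Sdc3 and Sdc4, had the order C3 over C1 over C2, which was the order of 19.8% of all genes and of Wisp2 itself. Without C1 or C2 the Poisson test passed 4 of 6 members, against 36.8% and 13.8% of all genes. Without C3 it passed only Sdc3 (1 of 6), and 12.9% of all genes. The summed leukocyte markers were highest in C1, where no tested member was highest. The part of the Wisp2 level in these values was not tested.

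Likeness in level and profile to the leading members was measured by the root mean square difference of log2(CPM + 1) over the 3 libraries. No length correction was applied here. For Sdc4 the most similar genes were Pgam1-ps2 (0.0168), Ddost (0.0195) and Gm12671 (0.0293), of which Pgam1-ps2 is named as a pseudogene with an uncertain count. For Gpc1 they were Col18a1 (0.0243), Dcbld2 (0.0481) and mt-Nd4 (0.0511). Col18a1 had 253, 250 and 282 CPM in C1, C2 and C3, beside 250, 257 and 284 CPM for Gpc1. Per length the levels differed, with 37.3 ± 2.55 CPM per kb for Col18a1 and 51.1 ± 3.43 for Gpc1.

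**Figure D4:**
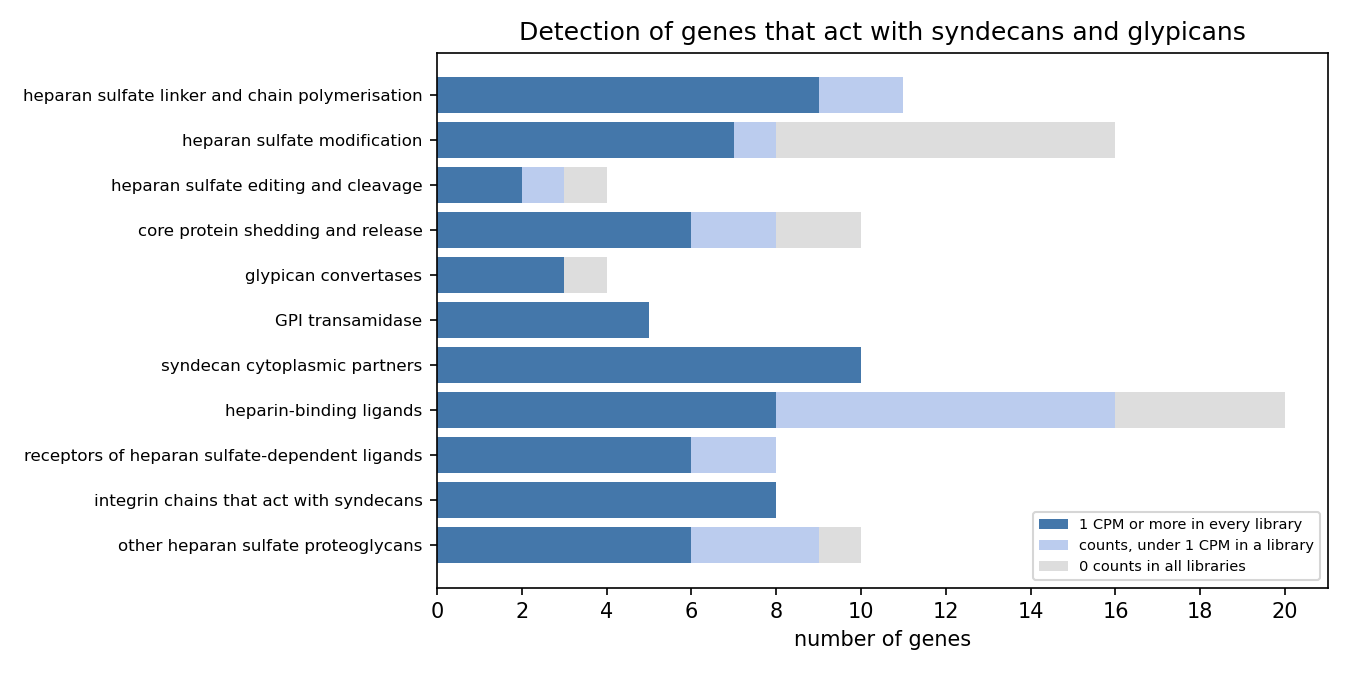
Number of genes in each of 11 lists that act with syndecans and glypicans, split by detection; dark bars are genes that reach 1 CPM in every library, light blue bars genes with counts but below that level in a library, grey bars genes with 0 counts. All members of the GPI transamidase, cytoplasmic partner and integrin lists are dark, and 8 of 16 heparan sulfate modification genes are grey. Of all symbols 33.8% reached 1 CPM in every library and 45.7% had 0 counts.

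The genes that build heparan sulfate chains were mostly detected. Of 11 genes for the linker and the polymer 9 reached 1 CPM in every library, led by the xylose kinase Fam20b (116 ± 2.19 CPM) and the polymerase subunit Ext2 (82.2 ± 2.92 CPM), and none had 0 counts. The median of the list was 23.1 CPM, against 0.00995 over all 34591 symbols and 35.9 over the genes that reached 1 CPM throughout. Of 16 genes that modify the chain 7 did so, led by the 2-O-sulfotransferase Hs2st1 (174 ± 6.15 CPM) and the N-deacetylase and N-sulfotransferase Ndst1 (106 ± 7.23 CPM). In that list 8 genes had 0 counts, among them the 6-O-sulfotransferases Hs6st2 and Hs6st3 and the 3-O-sulfotransferase Hs3st2. Of all symbols 33.8% reached 1 CPM in every library and 45.7% had 0 counts, which is the background for each list here. The modification list lay near these shares. Of 4 genes that edit or cut the finished chain, the sulfatase Sulf2 (14.7 ± 1.92 CPM) and the heparanase Hpse (3.39 ± 0.217 CPM) were detected, and Hpse2 had 0 counts. In the edgeR F test 0 of the 18 tested genes of these 3 lists passed (0.0691% of all genes), and 11 passed the Poisson test (39.3% of all genes).

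Proteases that release syndecan ectodomains, and the lipase Notum that cuts glypican anchors, formed a list of 10, of which 6 reached 1 CPM. Adamts1 (206 ± 28.5 CPM) and Adam10 (163 ± 11.9 CPM) led it, and Mmp7 and Mmp16 had 0 counts. Mmp9, a gelatinase that can shed Sdc1, was the only one of the 72 tested genes in all 11 lists to pass the F test, with 69.3, 57.8 and 147 CPM in C1, C2 and C3 (adjusted p = 0.00154, edgeR). In that order over the libraries it matched Sdc1, Sdc3 and Sdc4, as did 19.8% of all genes tested. Furin (105 ± 8.10 CPM) and Pcsk7 (23.2 ± 2.47 CPM) led the convertases that cleave glypican core proteins, with 3 of 4 detected and Pcsk5 at 0 counts. All 5 subunits of the GPI transamidase, which attaches the anchor glypicans need, were detected, led by Pigt (110.4, 100.5 and 114 CPM in C1, C2 and C3) and Pigk (74.2 ± 1.89 CPM).

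All 10 genes for proteins that bind or act on the syndecan tail were detected. Pdcd6ip, which encodes the syntenin partner ALIX, had 426 ± 2.51 CPM and ezrin, Ezr, 378 ± 21.0 CPM. All 8 integrin chains that act with syndecans were detected as well, led by Itgb1 (1208 ± 69.2 CPM) and Itga6 (318 ± 13.8 CPM). Of 20 ligands that bind heparin 8 reached 1 CPM, near the share of 33.8% of all symbols. The matrix proteins Fn1 (1734 ± 188 CPM) and Thbs1 (1079 ± 78.6 CPM) led them, while the growth factors Ptn, Bmp2 and Shh had 0 counts. Of 8 genes for receptors or signal transducers of heparan sulfate-dependent ligands 6 were detected. Met, the receptor of hepatocyte growth factor, had 314 ± 16.9 CPM and the hedgehog transducer Smo 146 ± 3.90 CPM. The ligand list had the lower median, 0.2503 CPM, against 33.4 CPM for the list of receptors and transducers.

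Start-site windows were compared between detected and undetected members. RefSeq windows (GRCm38.p6), cut here to the 250 bases before the start, matched 7 of the 10 genes and none for Sdc2, Gpc1 and Gpc6. Windows are shown for the detected Sdc3 and for Gpc3 and Gpc5, which had 0 counts, with every CG dinucleotide in capitals. They are written 5′ to 3′ on the strand of the gene.
Sdc3, plus strand, chr4:130792287-130792536: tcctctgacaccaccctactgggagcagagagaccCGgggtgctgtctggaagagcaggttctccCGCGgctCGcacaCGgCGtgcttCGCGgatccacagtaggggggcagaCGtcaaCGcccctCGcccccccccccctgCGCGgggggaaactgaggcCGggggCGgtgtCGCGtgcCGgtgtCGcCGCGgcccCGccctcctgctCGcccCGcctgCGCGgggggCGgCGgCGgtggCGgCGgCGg
Gpc3, minus strand, chrX:52613975-52614224: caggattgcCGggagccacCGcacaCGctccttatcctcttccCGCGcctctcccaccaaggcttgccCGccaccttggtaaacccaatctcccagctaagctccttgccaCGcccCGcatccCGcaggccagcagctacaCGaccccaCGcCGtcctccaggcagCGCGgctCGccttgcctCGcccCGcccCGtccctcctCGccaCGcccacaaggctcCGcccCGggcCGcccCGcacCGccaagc
Gpc5, plus strand, chr14:115091965-115092214: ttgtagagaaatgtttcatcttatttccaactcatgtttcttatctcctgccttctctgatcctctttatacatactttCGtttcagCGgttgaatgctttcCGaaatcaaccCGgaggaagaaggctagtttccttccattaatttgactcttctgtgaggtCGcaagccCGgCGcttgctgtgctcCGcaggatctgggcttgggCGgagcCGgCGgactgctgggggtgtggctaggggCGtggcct

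The window of Sdc3 held 32 CG dinucleotides, that of Gpc3 25 and that of Gpc5 12, against a median of 6 over 32851 windows of the same length. Gpc3 thus had 0 counts with a window that only 9.59% of all windows exceeded in CG. Of the other members, the detected Sdc4, Gpc4 and Sdc1 had 19, 18 and 10, and Gpc2, with 0 counts, had 19. Ranges of detected (10 to 32) and undetected (12 to 25) members overlapped. The motif GGGCGG, searched on both strands, was in all 7 windows and in 32.7% of all windows, and it contains a CG itself. The motif TATAAA, also on both strands, was in the window of Gpc5 only and in 12.4% of all windows. A match describes the letters of the window and not binding. The Sdc1, Gpc2 and Gpc4 windows overlapped annotated exons of their genes by 73, 68 and 250 bases.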

How the data were processed

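Counts were taken as deposited by the authors, whole numbers per gene symbol and library with no normalization, from stranded poly(A) libraries per the labels' protocols. CASAVA 1.7, BWA, STAR, HTSeq and the mouse build mm9 are named in the submitters' processing notes without role or order. Annotation and strand setting: not given in the sources used here. Column names match no sample title, so columns were assigned to the group as a whole. No source says that the libraries came from separate cultures, so spread may be technical. CPM used column totals. Exon lengths came from GENCODE M21 (GRCm38), another build, and ratios had 0.5 counts added. Spread was tested across all genes with edgeR 4.0.16 (R 4.3.3, TMM, filterByExpr, intercept only), as the quasi-likelihood dispersion over its trended prior, and with a Poisson chi-square test (2 degrees of freedom), both with Benjamini-Hochberg adjustment at 0.05. The code was tested on simulated data. Single-library intervals are exact 95% binomial (Clopper-Pearson) and, like the limit of 3 counts, cover counting error only.

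The members and lists were chosen with earlier results of these data known. All members are named, with the 2 most abundant genes of each list, those past the F test and up to 3 at 0 counts. Alternatives covered scaling, filter, prior, detection level, counts added, length and each library left out. The tally of members highest in C3 and its alternatives were added after seeing the data. A marker list is not reported here.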

Additional observations from a re-analysis of the deposited data

How the results depend on the processing

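The count of members at 1 CPM or more stayed at 6 under other scaling, at 0.5 CPM or 10 counts, and without any library. All 6 neighbour pairs were separated under each alternative run, although without length correction Gpc1 came before Sdc4. The count past the edgeR F test, 0, became 1 (Sdc3) with every gene that had a count, where 171 of 18797 genes passed. It lay between 0 and 1 when each library was left out. The value of 1 (Sdc3) came without C1, where 52 of 13337 genes passed. In the main fit 9 of 13026 genes passed. The other scalings gave 0 members. The robust prior also gave 0, but with it 0 of 13026 genes passed, so it cannot set members apart from other genes. The count past the Poisson test, 4, lay between 1 and 4 when each library was left out, with the low value without C3. Of all genes 39.3% passed it, and between 12.9% (without C3) and 36.8% with a library left out. The log2 ratio of syndecans to glypicans, 1.57, was 0.95 without length correction and 1.40 with the longest transcript, and between 1.55 and 1.59 when each library was left out. The share of Sdc4, 38.4%, was 26.9% and 35.7% under the same length settings, and between 38.2% and 38.6% with a library left out. Both shifts come from the change of length alone. For the 7 members with a count, each of 35 alternative CPM means stayed within the SD of its member. With a library left out this was fixed in advance, since a mean over the remaining libraries cannot leave that SD. The other CPM means changed only the scaling. The log2 ratio of syndecans to glypicans and the share of Sdc4 are means over libraries too. Leaving a library out thus could not move them beyond their SD. Without C1 the mean of Gpc6 went from 0.0618 to 0.0359 CPM. No paired analysis was possible because there was 1 group. Without control libraries no value estimates an effect of WISP2.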
